A study of Mus musculus with 4 samples.

Results

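The urea cycle and the glutamine enzymes around it were examined in mouse liver through 10 genes: Nags, Cps1, Otc, Ass1, Asl, Arg1, Slc25a15, Oat, Gls2 and Glul. The genes were chosen by name, and a gene was measured where the platform annotation gave a probe set that gene symbol and no other. By this rule 8 of the 10 genes were measured, out of 19938 genes on the array. Ass1 appeared only on probe sets that also carry the symbol Gm5424, and Gls2, the glutaminase of liver, is not analysed here. RNA came from livers of mice labelled male and aged 8 weeks, snap-frozen, with 3 livers pooled on 1 Affymetrix whole-transcript array for each of 4 genotypes: GHR and MDR2 double knockout (double-null), GHR knockout (GHR-null), MDR2 knockout (MDR2-null) and wild type. MDR2, the product of Abcb4, moves phospholipid into bile, and mice without it develop cholestasis with liver fibrosis, while loss of the growth hormone receptor GHR makes the liver resistant to growth hormone. The title of the series asks whether growth hormone resistance worsens that fibrosis. Strain, the design of the knockout alleles and the cell types in which they act are not given in the sources used here. With 1 pool per genotype a difference between arrays has no replicate check.

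The urea cycle turns ammonia into urea in the hepatocytes around the portal vein. NAGS makes the activator that CPS1 needs to build carbamoyl phosphate in the mitochondrion, OTC joins it to ornithine, ASS1 and ASL produce arginine in the cytosol, ARG1 releases urea, and the carrier SLC25A15 returns ornithine to the mitochondrion. Periportal glutaminase (GLS2) frees ammonia from glutamine. Glutamine synthetase (GLUL), held in a thin layer of hepatocytes around the central vein, binds the ammonia that has escaped the cycle, and OAT links ornithine to glutamate.

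The targeted gene Ghr stood at 935 and 1395 in pools lacking GHR (double-null first), against 4485 in MDR2-null and 4944 in wild-type livers, and Abcb4 at 689 and 663 in the double-null and MDR2-null pools, against 1346 and 1120 in the GHR-null and wild-type pools. Which part of either gene the probes cover is not given here, so these levels check the labels only where probes lie in the deleted part. Xist, expressed from the inactive X chromosome of female cells, was at 1400 in the GHR-null pool and at 16 to 18 in the others. All 4 pools expressed Kdm5d, Uty and Eif2s3y, which are Y-linked. Eif2s3y was at 951 in double-null, 680 in GHR-null, 840 in MDR2-null and 899 in wild-type livers, and Uty at 368, 308, 345 and 361, both lowest in the GHR-null pool. Kdm5d was at 265, 259, 212 and 268. The GHR-null pool therefore went against its label, and results that rest on it carry this limit. These are all comparisons with GHR-null livers, all separations of pools by GHR or MDR2 loss, non-additivity and the limma fit. For Glul and Oat the reading without this pool is given as well. Hepatocyte markers, 16 measured of 16, summed to 149121 to 161112 in the 4 pools. Cholangiocyte markers, 10 measured of 12, summed to 4086 in the double-null pool, against 891, 1508 and 693 in the GHR-null, MDR2-null and wild-type pools. The largest part of the double-null sum was Cd24a, at 1722, 126, 470 and 106 in the same order. In double-null against MDR2-null livers 9 of 9 compared were at least 1.5-fold higher, beside 7.17% of all compared genes. A gene was compared where either pool reached an intensity of 100. Tspan8, at 281 and 66, and Cftr, at 141 and 36, reached it only in the double-null pool. Prom1, at 62 and 40, reached it in neither. Macrophage markers, 10 of 10, summed to 9554 in the double-null pool, against 3876, 6571 and 2886. Lyz2, at 5243, 977, 2879 and 847 in the same order, made up most of the double-null sum. In double-null against MDR2-null livers 4 of 9 compared were at least 1.5-fold higher and 0 lower, beside 7.17% and 3.89% of genes. Of these 4, Itgam, at 131 and 65, reached 100 only in the double-null pool. Clec4f, at 628, 993, 885 and 677, and Timd4, at 258, 368, 323 and 251, were lower in the double-null pool than in both single knockouts. Stellate cell markers, 10 of 10, summed to 10126, against 7133, 8242 and 5851, and Dcn, at 6466, 4295, 4928 and 3591 in the same order, made up most of that sum. In double-null against MDR2-null livers 1 of the 10 was at least 1.5-fold higher and 1 lower, beside 7.17% and 3.89% of all compared genes. The median of the 10 was 0.12. Endothelial markers, 10 of 10, summed to 5840, against 7394, 6334 and 5889. Kidney and muscle markers, 6 of 6, summed to 279 to 408. The part of these other cell types in the differences of the members was not tested. In pooled bulk tissue, fewer cells of a type and less RNA per cell cannot be told apart.

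Glul was the member that differed most between genotypes, and it was low in 1 pool. Its intensity was 1845 in the double-null pool, against 3705 in the GHR-null, 4363 in the MDR2-null and 3781 in the wild-type pool. The single knockouts and wild type thus lay close together and the double-null pool stood well below all of them. Against MDR2-null livers Glul was 2.36-fold lower in double-null livers, a log2 difference of -1.24. Against GHR-null it was 2.01-fold lower and against wild type 2.05-fold lower. A second probe set of Glul, alone on its row too, gave 1918 in the double-null pool, against 3470, 4507 and 3420 in the GHR-null, MDR2-null and wild-type pools, so both probe sets placed the double-null pool lowest. On the second probe set double-null livers were 2.35-fold below MDR2-null, 1.81-fold below GHR-null and 1.78-fold below wild-type livers. Where the probes of either set lie is not given here, so signal from near-identical copies of Glul is uncertain. Glul lies on chromosome 1 (RefSeq, GRCm38.p6, chr1:153899929-153909723). The 250 bases before its start, on the plus strand at chr1:153899679-153899928, are shown because this gene carries the main difference. Capitals, here and in the sequences of Oat and Nags, mark matches to the motifs described with the promoters, and the window of Glul has none.

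Glul promoter: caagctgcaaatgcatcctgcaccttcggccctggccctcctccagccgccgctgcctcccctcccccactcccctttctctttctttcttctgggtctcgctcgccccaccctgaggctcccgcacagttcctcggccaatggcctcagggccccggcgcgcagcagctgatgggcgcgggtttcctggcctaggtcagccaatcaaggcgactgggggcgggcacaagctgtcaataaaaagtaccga

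Oat, the ornithine aminotransferase, had its lowest level in wild type. Its intensity was 4463 in the double-null, 5041 in the GHR-null and 5158 in the MDR2-null pool, against 3673 in wild type. Every knockout pool was above wild type, by 1.22-fold, 1.37-fold and 1.40-fold, with the double-null pool the lowest among them. None of these differences reached 1.5-fold. Like Glul, OAT is known from rodents as an enzyme of the pericentral layer. Oat lies on the minus strand of chromosome 7 (chr7:132557475-132576398), and the 250 bases before its start (chr7:132576399-132576648, read 5′ to 3′ on the minus strand) are given for comparison with Glul, since these 2 genes departed furthest from additivity.

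Oat promoter: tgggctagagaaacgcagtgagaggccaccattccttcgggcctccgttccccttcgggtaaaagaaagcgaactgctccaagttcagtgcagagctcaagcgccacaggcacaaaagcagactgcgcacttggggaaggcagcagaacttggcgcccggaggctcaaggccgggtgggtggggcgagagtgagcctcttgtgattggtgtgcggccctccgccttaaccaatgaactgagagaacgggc

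Among the enzymes of the cycle, Cps1 varied little, with a range of 0.15 (log2) over the 4 pools, while Asl, Arg1 and Otc had ranges of 0.36, 0.42 and 0.53, beside a median range of 0.44 over all genes. Cps1, the entry enzyme, was at 11243 in the double-null, 11130 in the GHR-null, 10141 in the MDR2-null and 10165 in the wild-type pool, a spread of 1.11-fold from lowest to highest. Both pools without GHR were slightly above both pools with it, as was the case for 22.9% of all 10764 genes. Otc, which makes citrulline, was at 2667, 3856, 3176 and 3857 in the same order of genotypes. Both pools without MDR2 were below both pools with it, and Otc was 1.45-fold lower in double-null than GHR-null livers and 1.45-fold lower than in wild type. Asl, which splits argininosuccinate, was at 1874, 2144, 1717 and 2204. Arg1, which releases urea, was at 3699 in the double-null, 4763 in the GHR-null, 3548 in the MDR2-null and 4679 in the wild-type pool. Asl and Arg1 showed the same order as Otc with respect to MDR2: the levels in the 2 pools without MDR2 did not overlap those in the 2 pools with it. In all, 3 of 8 members were lower in both pools without MDR2 than in both with it, beside 30% of all genes, and 0 were higher in both, beside 20.3%, so such separation was common among all genes. Arg1 was 1.32-fold lower in MDR2-null than wild-type livers and 1.29-fold lower in double-null than GHR-null livers. For Asl the 2 contrasts were 1.28-fold and 1.14-fold. The 2 probe sets that list Ass1 together with Gm5424 stood at 8093 and 7784 in the double-null, 8341 and 8104 in the GHR-null, 8131 and 7808 in the MDR2-null and 8110 and 7949 in the wild-type pool. Their level cannot be assigned to Ass1 alone.

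Nags, which makes the allosteric activator of CPS1, was at 923 in the double-null, 1130 in the GHR-null, 740 in the MDR2-null and 840 in the wild-type pool. Both pools without GHR were above both pools with it. Nags was 1.25-fold higher in double-null than MDR2-null livers and 1.35-fold higher in GHR-null than wild-type livers. Slc25a15, the ornithine carrier, was at 2513, 2619, 2428 and 2243 in the same order, a spread of 1.17-fold. Cps1, Nags and Slc25a15, 3 of 8 members, were higher in both pools without GHR than in both with it, beside the 22.9% of genes given for Cps1. Only Glul among the 8 was lower in both, beside 9.57% of genes, with GHR-null livers at 3705 and wild type at 3781. On its second probe set GHR-null livers were at 3470 and wild type at 3420, so this separation did not hold there. Nags lies on chromosome 11 (chr11:102145513-102149528, plus strand). The 250 bases before its start (chr11:102145263-102145512) are printed because they hold the only motif match among the 6 members with a promoter window.

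Nags promoter: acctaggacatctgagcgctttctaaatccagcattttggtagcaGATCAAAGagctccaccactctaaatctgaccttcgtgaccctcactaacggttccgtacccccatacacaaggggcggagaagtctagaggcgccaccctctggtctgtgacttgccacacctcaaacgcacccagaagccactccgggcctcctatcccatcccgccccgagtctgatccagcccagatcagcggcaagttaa

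**Figure D1:**
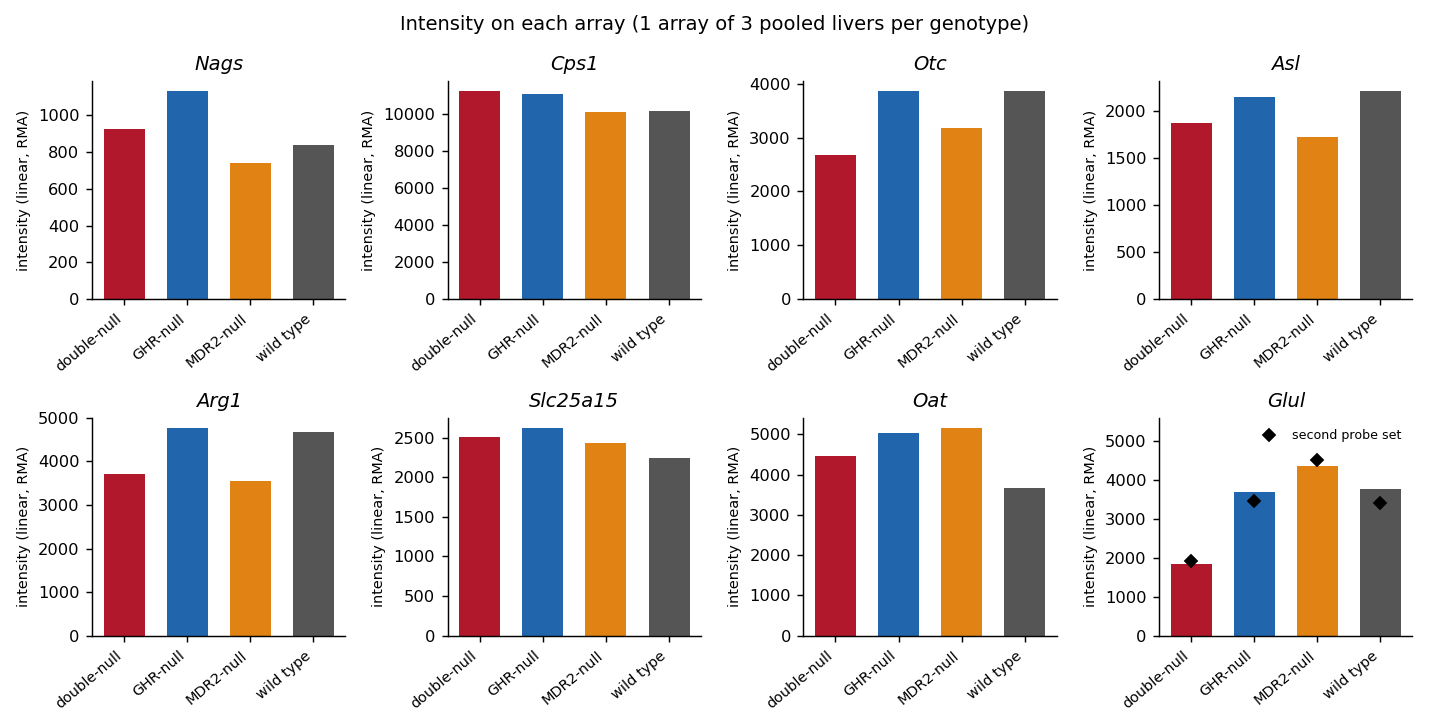
Intensity (linear, as deposited) of the 8 measured genes on the double-null, GHR-null, MDR2-null and wild-type array, 1 bar per array. Diamonds show the second probe set of Glul; the double-null pool is lowest on both, at 1845 and 1918, and the other panels vary by at most 1.53-fold.

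Set against all genes, Glul was the one member past 1.5-fold in each comparison that involves the double-null pool. No member was past it in GHR-null or MDR2-null against wild-type livers. The GHR-null and MDR2-null pools were not compared with each other, and Nags, at 1130 and 740 there, spanned 1.53-fold. A gene was compared where the higher of the 2 arrays reached the median intensity of all rows with 1 symbol, 100, and all 8 members passed. In double-null against MDR2-null livers, 1 of 8 members was at least 1.5-fold lower and 0 were higher, beside 3.89% and 7.17% of all 10524 compared genes. Among these genes 1.15% had a lower log2 difference than Glul and 2.34% were at least as far from 0. In double-null against GHR-null livers, 1 of 8 was lower and 0 higher, beside 9.94% and 9.99% of genes, and 3.04% of genes lay below Glul, with 7.68% as far from 0. In double-null against wild-type livers the counts were 1 lower and 0 higher, beside 7.6% and 13.7% of genes, and 2.81% of genes lay below Glul, with 9.25% as far from 0. Over the 4 pools Glul had a range of 1.24 (log2), and 8.31% of genes had one at least as wide. In GHR-null against wild-type livers 0 members were higher and 0 lower, beside 4.26% and 2.48% of genes. In MDR2-null against wild-type livers the counts were again 0 and 0, beside 6.11% and 3.59% of genes. These counts rest on a single gene and describe Glul, not the group. Of the 3 comparisons in which Glul was low, those with MDR2-null and wild-type livers do not use the GHR-null pool.

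The median log2 difference of all compared genes ran from -0.06 to 0.10 in the 5 comparisons, and small differences of the members have to be read against it. In double-null against MDR2-null livers, Cps1, Asl, Arg1 and Slc25a15 lay between 0.05 and 0.15, beside a median of 0.06 over all genes, and centring arrays on their median turned Arg1 to -0.03 and Slc25a15 to -0.04. In MDR2-null against wild-type livers the 4 measured cycle enzymes had a median of -0.32, beside -0.04 over all genes, with Cps1 at the level of wild type and Otc, Asl and Arg1 between -0.40 and -0.28. In double-null against wild-type livers that median was -0.29, beside 0.01, with Cps1 at 0.15 and Otc, Arg1 and Asl below 0.

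**Figure D2:**
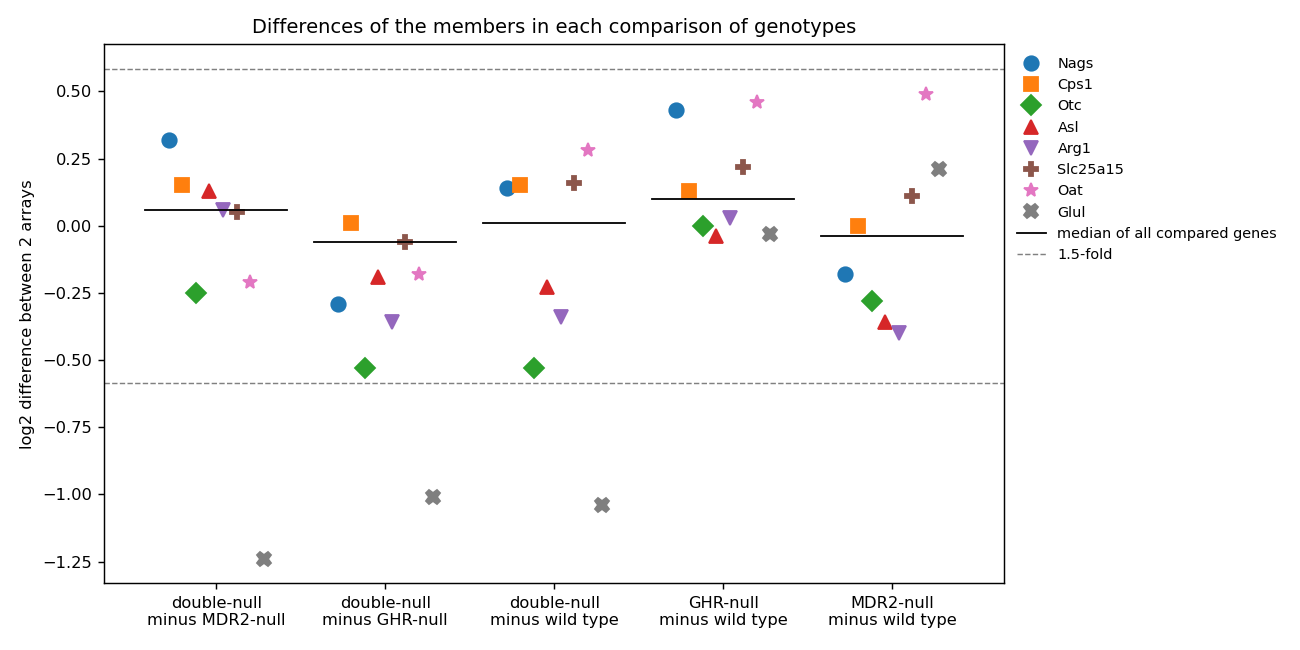
Log2 difference between 2 arrays (vertical axis) of the 8 genes in the 5 comparisons (horizontal axis); black lines are the median of all compared genes and dashed lines mark 1.5-fold. Glul lies at -1.24, -1.01 and -1.04 in the comparisons with the double-null pool, and every other point lies inside the dashed lines.

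Non-additivity asks whether GHR loss had the same size with and without MDR2, and was computed as the double-null minus MDR2-null difference less the GHR-null minus wild-type difference. For Glul it was -1.21 on the log2 scale, from -1.24 with MDR2 lost and -0.03 with MDR2 intact. If the log2 effects of the 2 losses had added, Glul would have stood at 4275 in the double-null pool, where 1845 was measured. The robust SD of non-additivity over 10764 genes was 0.32, a spread of typical genes that holds real non-additivity too and is no error for a given gene. Of these genes 2.19% were at least as far from 0 as Glul. For Oat it was -0.67, with an additive level of 7079 against the 4463 measured, and 9.06% of genes were as far from 0. The other 6 members lay between -0.25 for Otc and 0.17 for Asl. In all 2 of 8 members departed by at least 1.5-fold, beside 12% of all genes. For the same 2 genes the difference with MDR2 loss also had opposite signs without and with GHR, as for 5.04% of all genes. Every value of non-additivity uses the GHR-null pool with Xist at 1400. Without that pool, Glul was still lower in double-null than in both MDR2-null and wild-type livers, whereas Oat in double-null livers lay between these 2.

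**Figure D3:**
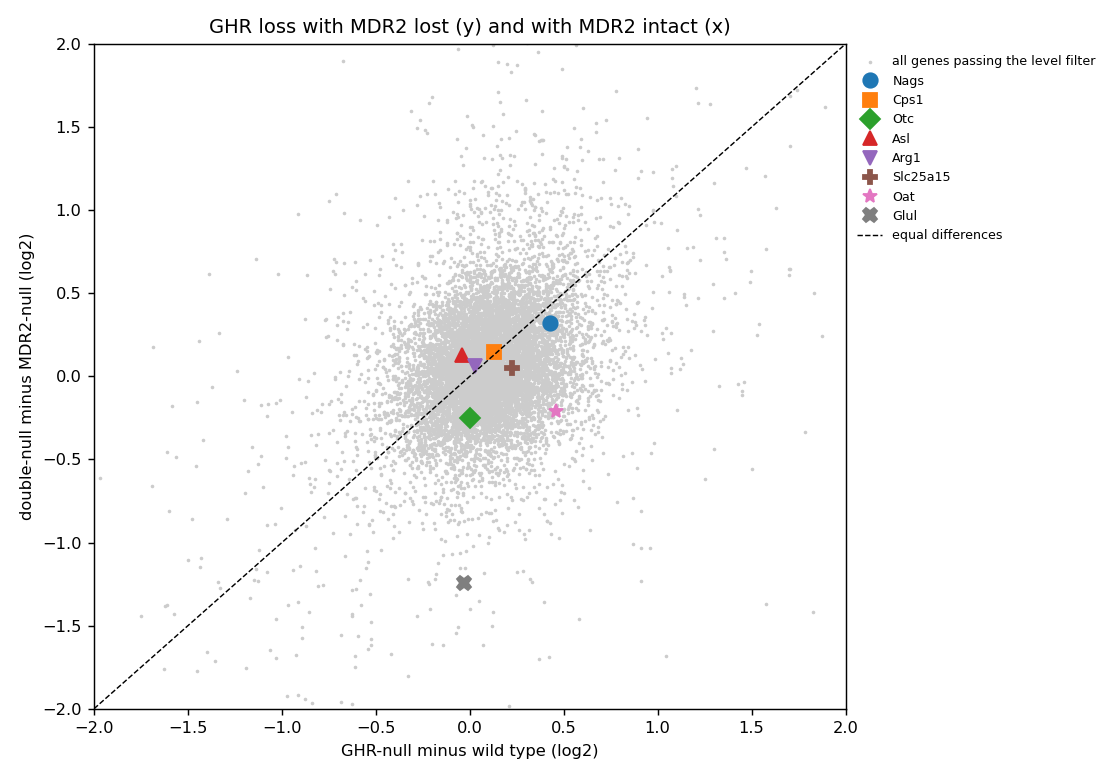
Log2 difference with GHR loss where MDR2 was lost (vertical axis, double-null minus MDR2-null) and where it was intact (horizontal axis, GHR-null minus wild type); grey points are the genes passing the level filter, 123 of which lie outside the axes. Glul, at -1.24 and -0.03, and Oat, at -0.21 and 0.46, lie furthest below the line of equal differences among the 8 genes.

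The one test the design allowed was limma over all genes with additive terms for loss of GHR and of MDR2. It averages each effect over both backgrounds and leaves 1 residual degree of freedom per gene. That residual is the departure from additivity, moderated over all genes. The SE and p-values of limma here therefore hold no measured spread between replicate pools of a genotype. No member passed at an adjusted p of 0.05 for either effect. For GHR loss, limma called 0 of 8 members, beside 0.52% of 10764 genes, and 1 member, Nags, had an unadjusted p under 0.05, beside 13.1% of genes. Nags averaged 0.37 ± 0.14 (log2, SE) higher without GHR, with a limma adjusted p of 0.37. Glul averaged -0.64 ± 0.30 with GHR loss, at an adjusted p of 0.44 in limma. A gene whose effects are not additive has a larger residual in this model, and the SE of Glul was the largest of the 8. For MDR2 loss, limma called 0 of 8 members, beside 3.75% of genes, and 2 had an unadjusted p under 0.05, beside 23.6% of genes. These were Otc at -0.41 ± 0.15 and Arg1 at -0.38 ± 0.14, both with an adjusted p of 0.18 in limma. For the targeted genes, Ghr averaged -2.04 ± 0.17 with GHR loss and Abcb4 -0.86 ± 0.14 with MDR2 loss, at limma adjusted p-values of 0.018 and 0.045. Both effects rest on all 4 arrays, and without the GHR-null array no residual is left for a test.

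Genes that feed the cycle or handle ammonia differed in both directions. Of 14 compared, 0 were at least 1.5-fold higher and 1 lower in double-null against MDR2-null livers, beside 7.17% and 3.89% of all genes. The median of the 14 was 0.03 and turned to -0.06 when arrays were centred on their median. Car5a, the mitochondrial carbonic anhydrase that supplies bicarbonate to CPS1, was at 450 in the double-null, 1483 in the GHR-null, 714 in the MDR2-null and 1218 in the wild-type pool. It was lowest in the double-null pool, 1.59-fold below MDR2-null and 2.71-fold below wild type. Nit2, an omega-amidase that acts on a keto acid of glutamine, was at 1932, 3408, 2890 and 3086, and Agmat, annotated as agmatinase, at 1849, 3552, 2667 and 2852. Nit2 and Agmat were also lowest in the double-null pool, 1.60-fold and 1.54-fold below wild type. Slc25a22, a mitochondrial glutamate carrier, was at 997 in the double-null, 844 in the GHR-null, 721 in the MDR2-null and 595 in the wild-type pool, and so was highest in the double-null pool. In double-null against wild-type livers 2 of 14 genes were higher and 3 lower, beside 13.7% and 7.6% of all genes. In double-null against GHR-null livers 0 were higher and 4 lower, beside 9.99% and 9.94% of genes. The median there was -0.22, beside -0.06 over all genes. In GHR-null against wild-type livers 1 was higher and 0 lower, beside 4.26% and 2.48% of genes, with a median of 0.27 beside 0.10. Among the 4 lower than in GHR-null livers was Got1, the cytosolic aspartate aminotransferase, at 3317 in double-null and 5014 in GHR-null livers. Limma called 0 of 14 for either effect, with 2 at an unadjusted p under 0.05 for each. Over all genes 13.1% had such a p for GHR loss and 23.6% for MDR2 loss.

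Among genes of glutamine, glutamate and proline, 4 of 21 compared were at least 1.5-fold higher in double-null against MDR2-null livers and 0 were lower, beside 7.17% and 3.89% of all genes, the median being 0.20 beside 0.06. Against GHR-null livers 3 of 20 were higher and 5 lower, beside 9.99% and 9.94% of genes, with a median of -0.13. Of the 3 higher, Asns, at 1219 and 66, and Slc1a5, at 112 and 73, reached the filter level of 100 only in the double-null pool. Against wild type 5 of 20 were higher and 2 lower, beside 13.7% and 7.6% of genes, with a median of 0.06. Of the 5 higher, Slc1a4, at 178 and 98, and Slc1a5, at 112 and 57, reached that level only in the double-null pool. The 4 at least 1.5-fold higher than in MDR2-null livers were Asns, Gatm, Ppat and Gpt. Asns, which makes asparagine with glutamine as nitrogen donor, was at 1219 in double-null, 66 in GHR-null, 200 in MDR2-null and 222 in wild-type livers. It was thus the opposite of Glul in the double-null pool, where it was highest and Glul lowest. Gatm, which takes the amidino group of arginine for creatine synthesis, was at 1471 in the double-null, 823 in the GHR-null, 822 in the MDR2-null and 558 in the wild-type pool. Gpt, an alanine aminotransferase, was 1.53-fold higher in double-null than MDR2-null livers, and Ppat, which uses glutamine in purine synthesis, 1.76-fold higher. Prodh, the first enzyme of proline breakdown, was 2.06-fold lower in double-null than GHR-null livers and 1.71-fold below wild type. Limma called 0 of 21 genes for GHR loss and 0 for MDR2 loss, with 6 and 7 at an unadjusted p under 0.05. Over all genes 13.1% and 23.6% had such a p.

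Several other enzymes that break down amino acids were low in the double-null pool. In double-null against wild-type livers, 10 of 28 were lower by at least 1.5-fold and 1 was higher, beside 7.6% and 13.7% of all genes. The median of the 28 was -0.55, beside 0.01 over all genes. Hal, which starts histidine breakdown and releases ammonia, was at 1305 in the double-null, 3766 in the GHR-null, 2381 in the MDR2-null and 3840 in the wild-type pool, and Shmt1, the cytosolic serine hydroxymethyltransferase, at 568, 1774, 947 and 1468. Both had their lowest level in the double-null pool and an intermediate one in the MDR2-null pool. Amt, a subunit of the glycine cleavage system, was at 302 in the double-null, 763 in the GHR-null, 362 in the MDR2-null and 719 in the wild-type pool. Both pools without MDR2 were thus below both with it, as was the case for 30% of all genes. Acmsd, of tryptophan breakdown, was the gene that was higher, at 680 in the double-null and 336 in the wild-type pool. In double-null against MDR2-null livers, 3 of 28 were lower and 1 higher, beside 3.89% and 7.17% of genes, with a median of -0.11. In MDR2-null against wild-type livers 5 of 28 were lower and 0 higher, beside 3.59% and 6.11% of genes. The median there was -0.18, beside -0.04 over all genes, so part of the difference from wild type was present with MDR2 loss alone. In double-null against GHR-null livers 16 were lower and 1 higher, beside 9.94% and 9.99% of genes, with a median of -0.66. This comparison uses the pool with Xist at 1400. Limma called 2 of 28 for MDR2 loss, beside 3.75% of genes. These were Amt at -1.16 ± 0.16 and Agxt, a peroxisomal aminotransferase, at -0.95 ± 0.14, with limma adjusted p-values of 0.032 and 0.038. For MDR2 loss 13 of 28 had an unadjusted p under 0.05 in limma, beside 23.6% of genes. For GHR loss limma called 0 of 28, with 2 at an unadjusted p under 0.05, beside 13.1% of genes. Hepatocyte markers in double-null against wild-type livers had a median of -0.10, which centring on those markers turned to 0.07. Among them 1 of 16, the lectin receptor Asgr1, was at least 1.5-fold lower, beside 7.6% of genes.

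Transcription factors and receptors known to act on urea cycle genes were mixed. In double-null against MDR2-null livers 1 of 14 was at least 1.5-fold higher and 1 lower, beside 7.17% and 3.89% of genes. The median of the 14 was -0.11. Ppargc1a, a coactivator of fasting, was at 542 and 606 in double-null and GHR-null livers, against 228 and 287 in MDR2-null and wild-type livers. Both pools without GHR were thus above both with it, as was the case for 22.9% of all 10764 genes. Cebpa, a factor on which urea cycle genes depend in mouse liver, was at 1282 in the double-null, 2490 in the GHR-null, 1707 in the MDR2-null and 2116 in the wild-type pool. Nr1h4, the bile acid receptor FXR, was at 781, 1094, 1271 and 1242 in the same order of genotypes. Cebpa and Nr1h4 were both lowest in the double-null pool, 1.65-fold and 1.59-fold below wild type, while Hnf4a was 1.04-fold above it. Limma called 0 of 14 for either effect, with 1 at an unadjusted p under 0.05 for GHR loss and 2 for MDR2 loss. Over all genes 13.1% and 23.6% had such a p.

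Since Glul and Oat belong to the pericentral layer, the other genes of that layer were set beside them. The low level of Glul was not shared by the layer as a whole. In double-null against MDR2-null livers, 1 of 16 pericentral genes was at least 1.5-fold lower and 3 were higher, beside 3.89% and 7.17% of genes. The median of the 16 was -0.01 and turned to 0.07 on centring by hepatocyte markers. The lower one was Rgn (regucalcin), at 1317 in the double-null, 4002 in the GHR-null, 2724 in the MDR2-null and 4058 in the wild-type pool. The higher ones were Tbx3 at 1.75-fold, Lgr5 at 1.61-fold and Rnf43 at 1.59-fold. In double-null against GHR-null livers 0 of 16 were higher and 2 lower, Rgn and Slc1a2, beside 9.99% and 9.94% of genes. The median there was -0.11 and turned to 0.02 on centring by hepatocyte markers. Tbx3 was at 357 in double-null and 361 in GHR-null livers and Lgr5 at 314 and 395, so neither was higher in that comparison. Slc1a2, the glutamate uptake carrier that serves GLUL, was at 734 in the double-null, 1168 in the GHR-null, 1019 in the MDR2-null and 952 in the wild-type pool, lowest in the double-null pool as Glul was, though by less than 1.5-fold against MDR2-null and wild type. Rhbg, an ammonia transporter of the same cells, was at 555, 477, 593 and 361, and so was not low in the double-null pool. Periportal genes, among which the cycle enzymes belong, had 3 of 12 lower and 1 higher in the double-null against the MDR2-null pool. The shares of all genes were 3.89% and 7.17%, and the median of the 12 was -0.14. Lower were Cyp2f2, Pigr and Hal. Hsd17b6 was higher, at 6032 in the double-null and 2910 in the MDR2-null pool. Hal, Gldc and Uroc1 of this list were also counted among the amino acid enzymes above. Cyp2f2, a periportal cytochrome P450, was at 631 in the double-null, against 8133, 9594 and 11138 in the GHR-null, MDR2-null and wild-type pools. Cps1 varied little by comparison, at 11243 in the double-null, 11130 in the GHR-null, 10141 in the MDR2-null and 10165 in the wild-type pool. Limma called 0 of 16 pericentral genes for GHR loss and 0 for MDR2 loss, with 5 and 4 at an unadjusted p under 0.05. Over all genes 13.1% and 23.6% had such a p. Among periportal genes limma called 0 of 12 for GHR loss, with 3 at an unadjusted p under 0.05. For MDR2 loss limma called 1 of 12, beside 3.75% of genes. It was the adhesion gene Cdh1, at 1.34 ± 0.21 with a limma adjusted p of 0.041. For the same effect 7 of the 12 had an unadjusted p under 0.05 in limma.

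**Figure D4:**
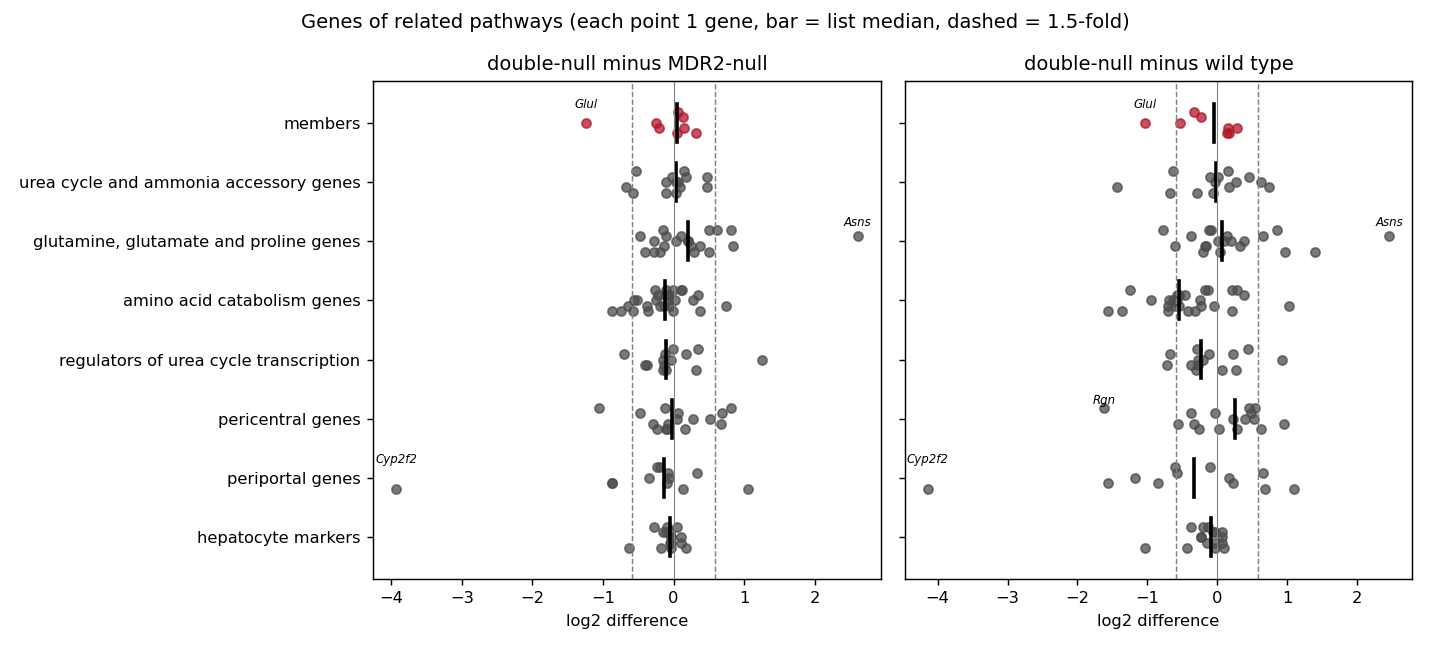
Log2 differences (horizontal axes) of the members and of 7 related gene lists (rows), double-null minus MDR2-null on the left and double-null minus wild type on the right; each point is 1 gene that passed the level filter, thick bars are list medians and dashed lines mark 1.5-fold. Glul lies left of the dashed line at -1.24 and -1.04, while on the right the median of pericentral genes is 0.26 and that of amino acid catabolism genes -0.55.

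The genes whose profile over the 4 arrays lay nearest to that of Glul were Ttc39b, Gm12250, Ddo, Ldhd and Abca2, at Euclidean distances of 0.16 to 0.23 between centred log2 values. Ddo, the D-aspartate oxidase, was at 182 in the double-null, 330 in the GHR-null, 352 in the MDR2-null and 319 in the wild-type pool. Ldhd, the D-lactate dehydrogenase, was at 510, 868, 1189 and 1088. Both were low in the double-null pool only. With 4 points per gene, such nearness is a description of these arrays.

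RefSeq promoter windows (GRCm38.p6) were matched by symbol for 6 of the 10 genes: Otc, Ass1, Nags, Slc25a15, Glul and Oat. The 250 bases before each start were searched on both strands for TTCNNNGAA, the element of STAT factors through which growth hormone acts, TTGCNNAA for C/EBP factors, CAAAGTCCA for HNF4, TGACGTCA for the cAMP response and CTTTGATC for the TCF/LEF factors of Wnt signalling. No window of the 6 genes held any of the first 4, which occur in 7.02%, 9.56%, 0.384% and 1.55% of 32851 windows of the same length. The TCF/LEF letters, in 0.801% of windows, occurred once, in Nags, with their first base in the printed window 205 bases before the start. No overlap between motifs arose in these windows. A missing match says only that these letters are not in this window.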

How the data were processed

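Per the submitters' processing notes, the deposited intensity values came from RMA in Affymetrix Expression Console 1.1. They are whole numbers from 6 to 22355 on a linear scale and were converted to log2 here, and rounding makes differences between low levels coarse. Of 35556 rows, 21789 carry 1 gene symbol in GEO's platform annotation, and only these were used. A gene with several rows took the row with the highest mean. Precision is limited by the number of arrays. A gene was left out of a comparison where both arrays were under an intensity of 100. It was left out of non-additivity and limma where every array was. Summed marker intensities took every measured gene, without this filter. Arrays correlated at a Pearson r of 0.970 to 0.988. Differences were taken between single arrays in 5 comparisons, with no p-value. limma 3.58.1 (R 4.3.3) was fitted on log2 values with Benjamini-Hochberg adjustment over 10764 genes and 4.34 prior degrees of freedom, and its script was tested on simulated data. Members, lists and motifs were chosen with earlier results of these data known. All members are named. In each list the genes with the largest differences in a comparison are named, up to 4 per comparison, together with the targeted and sex-linked genes and the 5 nearest profiles to the member with the widest range. Alternatives were cyclic loess, centring on hepatocyte markers or the array median, averaging a gene's rows, no level filter or one at 329, a 2-fold threshold, and trend and robust limma settings.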

Additional observations from a re-analysis of the deposited data

Results flagged for a closer look

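For 2 members the difference with MDR2 loss pointed one way without GHR and the other way with GHR, by at least 1.5-fold between the contrasts, beside 5.04% of all 10764 genes. They are the same 2 genes counted under non-additivity, so this is no separate result. Glul was at -1.01 (log2) in double-null minus GHR-null livers and at 0.21 in MDR2-null minus wild-type livers. Oat was at -0.18 and 0.49 in the same contrasts. Each contrast is 1 array against 1, and the difference between them was not tested. The contrast without GHR uses the GHR-null pool, in which Xist was at 1400.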

How the results depend on the processing

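No paired analysis was possible because each genotype is 1 array of pooled livers. Without the GHR-null array no fit with a residual can be had, and no array could be left out in turn. Glul kept its direction in all 3 comparisons with the double-null pool under every alternative, from -1.33 to -1.16 against MDR2-null, -1.01 to -0.86 against GHR-null and -1.09 to -0.83 against wild type, the second probe set included, an alternative added after the data were seen. Its non-additivity ran from -1.25 to -1.16 and that of Oat from -0.67 to -0.62. With array-median centring, 2 members in place of 1 were at least 1.5-fold lower in double-null against wild-type livers, Otc at -0.59 joining Glul. The limma average with GHR loss turned to -0.06 for Asl and -0.06 for Arg1 under array-median centring, in place of 0.04 for each, and neither was called. Of all genes, limma called 27 for GHR loss with hepatocyte centring, 32 with the higher level filter and 0 with no filter (1828 at an unadjusted p under 0.05), in place of 56. For MDR2 loss it called 69 with the higher filter and 0 with no filter (2928 at an unadjusted p under 0.05), in place of 404. The filters change how many genes are tested, and for the centring the cause was not tested. No member was called under any limma setting, while 0 to 1 had an unadjusted p under 0.05 for GHR loss and 0 to 2 for MDR2 loss. Small signs turned for Arg1 and Slc25a15 in double-null against MDR2-null livers (to -0.03 and -0.04 with median centring), for Slc25a15 against GHR-null livers (to 0.08 with hepatocyte centring), and in GHR-null against wild-type livers for Arg1 (to -0.10 with median centring) and for Glul (to 0.02 on its second probe set). The all-gene median moved by -0.12 with median centring in GHR-null against wild-type livers, and by 0.14 and 0.17 with hepatocyte centring in double-null against GHR-null and wild-type livers. Other scalings moved it by less than 0.1. All 8 members had an intensity of at least 740. The lack of replicate arrays and the choice of scaling both limit the small differences, and those with GHR-null livers also rest on the pool with high Xist.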
